A study of Mus musculus with 82 samples.

Results

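The genes described here encode the cytosolic machinery that turns mRNA into protein in the mouse extended amygdala: initiation factors (array names starting Eif1 to Eif6), elongation factors (Eef1 and Eef2), cytoplasmic poly(A)-binding proteins (Pabpc) and the cytosolic aminoacyl-tRNA synthetases. They were chosen by gene name alone, and 78 such genes were on the array among 29538 gene names. Of these, 62 had a probe in the authors' normalized table of synaptoneurosomes and homogenates from control mice, 63 in the table of synaptoneurosomes and 62 in the table of homogenates. Where several probes of a gene were kept, the probe with the highest mean was used and the others are given where they differ. Argonaute genes match the name pattern only because the array carries their older Eif2c names, so they form a group of their own.

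Initiation begins when the cap-binding complex eIF4F, made of the cap-binding protein eIF4E, the scaffold eIF4G and the helicase eIF4A, recruits a ribosomal subunit carrying eIF3 and the initiator tRNA held by eIF2. The exchange factor eIF2B reloads eIF2 with GTP, and stress kinases block that step by phosphorylating eIF2, while the 4E-BP proteins block eIF4E until mTOR phosphorylates them. Neurons translate some mRNAs in dendrites and axons, and synaptoneurosomes, pinched-off and resealed synaptic endings collected by filtration, are used to study that pool.

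Female C57BL/6J mice, 2 months old, were given water alone (13 controls) or a free choice between water and 20% ethanol for 24 hours a day over 30 days (8 alcohol mice). Extended amygdala from each mouse was homogenized, a 10% share of the homogenate was frozen as total homogenate (TH), and the remainder was passed through filters and spun down as the synaptoneurosome fraction (SN), so SN and TH of a mouse came from the same homogenate. RNA was hybridized to Illumina bead arrays, and 40 arrays were used: 13 control SN, 11 control TH, 8 alcohol SN and 8 alcohol TH. Each array is 1 mouse and the number of arrays limits the precision. An SN pellet of this kind also holds glial processes and other small particles, and in bulk samples like these, fewer cells of a type and less RNA per cell cannot be told apart.

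The SN arrays detected fewer probes (detection p under 0.01) in alcohol mice (15759 to 16983) than in controls (16249 to 17914), with overlap, whereas the TH arrays of both groups lay between 16861 and 17985. The SN arrays of controls 12 and 13 stood apart together: their deviations from the mean of all other SN arrays, control and alcohol, correlated at 0.87 across 17514 probes. Among the 13 SN controls, these arrays held both of the lowest values for 17 of the 63 genes and both of the highest for 6, which is 36.5% of the genes against 25.7% of all 12435 genes measured there. The labels mark the TH arrays of controls 11 and 12 as outliers. They are not used here, so these mice take no part in the SN and TH comparison.

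The 16 genes absent from the control SN and TH table, which keeps probes detected (p under 0.05) on at least 80% of its arrays, were Ago1, Cars, Eif1ax, Eif2ak4, Eif2s1, Eif2s3y, Eif3e, Eif3h, Eif4e1b, Eif4ebp3, Eif5a2, Eif5b, Pabpc2, Pabpc4l, Pabpc5 and Yars. Eif2s1, the eIF2 alpha subunit that the stress kinases phosphorylate, was detected on 2 of 40 arrays, and Eif2ak4, the amino acid sensing kinase GCN2, on 3. Eif3h reached 30 of 40 arrays and was kept in the SN table only. A probe that was not detected says nothing of the protein.

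Many mRNAs of the translation machinery belong to the TOP class: they start with a C followed by an unbroken run of pyrimidines, through which mTOR and the RNA-binding protein LARP1 control their translation. The list of TOP mRNAs among these factors held 10 genes (Eef1a1, Eef1b2, Eef1d, Eef1g, Eef2, Eif3e, Eif3f, Eif3h, Eif4b and Pabpc1), and 5 of them had a transcript start in the RefSeq table used. The bases around those starts are shown because this list is followed through the comparisons, together with those of Eif4a1 and Gars, which had the smallest p-values among the genes lower in SN of control mice. Each line runs from 20 bases before the annotated start to 20 bases from it (GRCm38.p6), and capitals mark a run of at least 8 bases that are each C or T.
Eef1a1, chr9:78481705-78481744, minus strand: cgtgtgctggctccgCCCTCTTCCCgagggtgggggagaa
Eef1b2, chr1:63176811-63176850, plus strand: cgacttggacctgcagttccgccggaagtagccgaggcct
Eef2, chr10:81176611-81176650, plus strand: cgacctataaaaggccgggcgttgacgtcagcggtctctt
Eif3f, chr7:108934395-108934434, plus strand: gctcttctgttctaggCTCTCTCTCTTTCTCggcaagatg
Eif4b, chr15:102073753-102073792, plus strand: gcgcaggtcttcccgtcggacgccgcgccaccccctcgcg
Eif4a1, chr11:69672404-69672443, minus strand: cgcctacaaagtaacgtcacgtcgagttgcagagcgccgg
Gars, chr6:55037981-55038020, plus strand: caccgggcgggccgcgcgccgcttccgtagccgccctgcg
Runs of this length, anywhere in the window and on the transcript strand only, lay around 2 of the 5 TOP starts (Eef1a1 and Eif3f), 17 of the 70 annotated starts of the whole gene set (24.3%) and 5272 of all 32851 starts (16%). This does not count TOP starts. Both marked runs begin before the annotated start, where the base is T for Eef1a1 and C for Eif3f. The Eef2 window ends in a run of 6 that may continue beyond it. An annotated start can differ from the start used in brain, so a missing run says only that the letters are not in this window.

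In control mice, 26 of the 62 genes differed between SN and TH, 13 higher and 13 lower in SN (limma on mouse pairs, Benjamini-Hochberg adjusted p under 0.05 over all 17820 probes). That is 41.9% of the set, against 41.3% of all 12626 genes (39.5% of probes; genes higher 20%, lower 21.3%), and the median difference was 0.01 on the log2 scale against 0.00 for all genes. The set as a whole therefore lay at the background, and the differences were between its members. On the authors' scale they ran from -0.36 for Eif4a1 to 0.42 for Eef1d. On jointly normalized log2 signals the same pairs ran from -0.41 for Eef1e1 to 0.48 for Eif4ebp2. Some dim probes differed less on the authors' scale: Eif3j1 was at 0.16 against 0.32 on log2 signals and Eef2k at 0.12 against 0.20, while the brighter Eef1d was at 0.42 on both. Fraction differences of control mice are given on the authors' scale unless stated. SN and TH values did not overlap for 2 of the 62 genes (Eif3j1 and Eif4a1), against 4.93% of all genes.

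**Figure D1:**
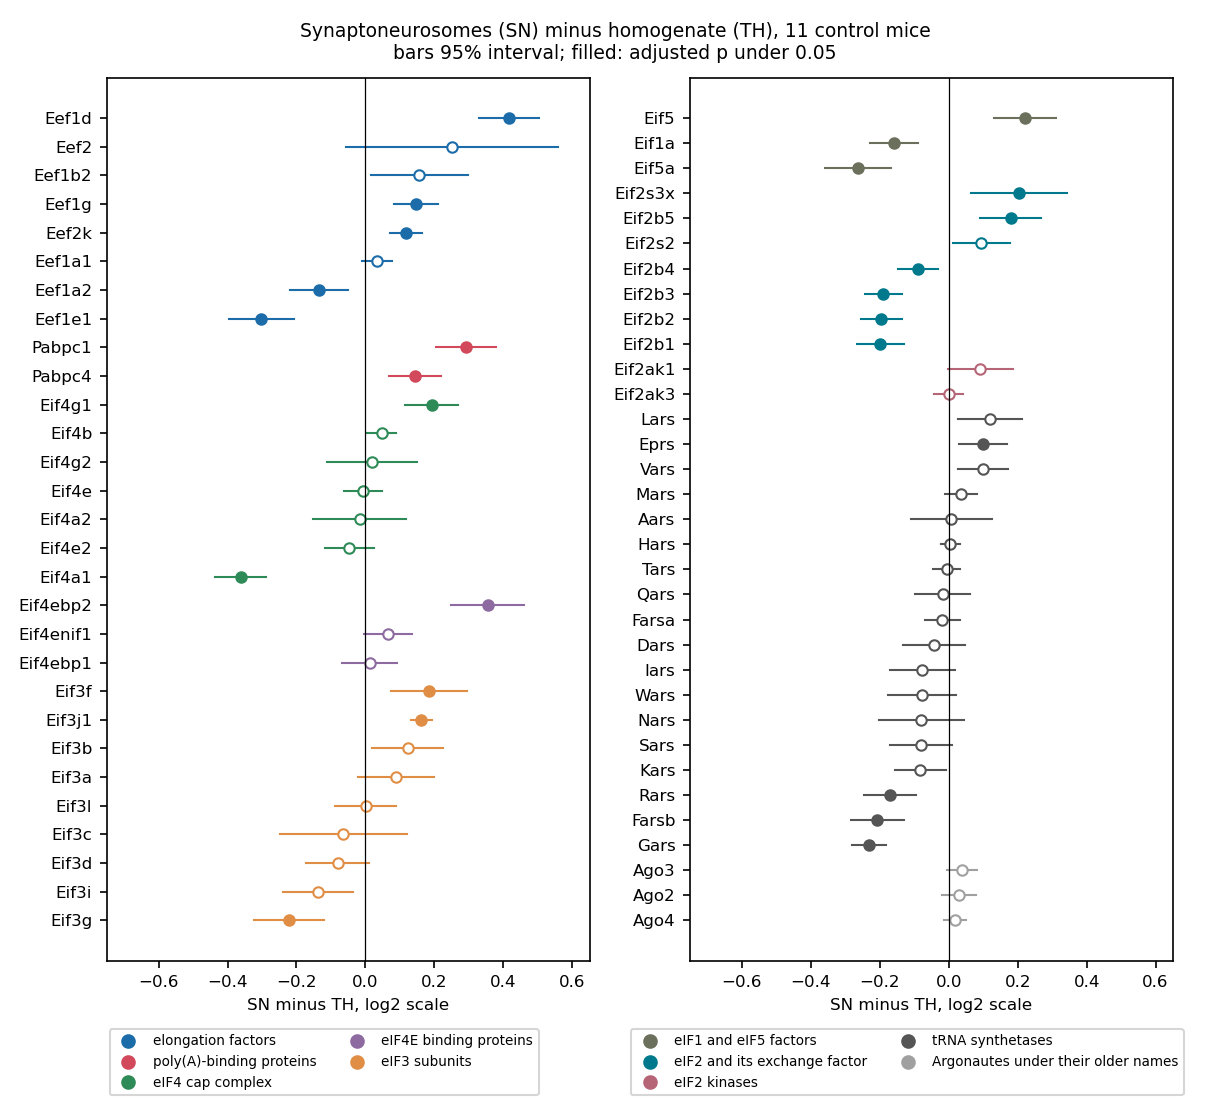
SN minus TH of 62 genes in 11 control mice (x axis, difference on the log2 scale of the authors' normalized values; points, paired estimates; bars, 95% intervals; filled points, adjusted p under 0.05), with genes grouped and coloured by role. Poly(A)-binding proteins lie right of 0, 4 of the 5 eIF2B subunits lie left of it, and most tRNA synthetases have open points.

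Elongation factors were split. Eef1d, the delta subunit of the exchange factor that recharges eEF1A, ranged from 11.26 to 11.83 (median 11.51) in SN and from 10.80 to 11.36 (median 11.12) in TH. Every mouse was higher in SN although the ranges met, and the difference was 0.42 (SE 0.04, adjusted p = 1.52e-05). A dimmer Eef1d probe did not show it (-0.04, adjusted p = 0.135). Eef1g, the gamma subunit of the same exchange factor, lay at 13.06 to 13.47 (median 13.33) in SN and 13.02 to 13.38 (median 13.16) in TH. It was higher in SN in 10 of 11 mice with broad overlap, by 0.15 (SE 0.03, adjusted p = 0.00364). Eef1b2, the catalytic beta subunit, was 0.16 higher but did not pass (adjusted p = 0.105).

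Of the isoforms of eEF1A, which delivers aminoacyl-tRNA to the ribosome, the ubiquitous Eef1a1 differed by 0.03 on its brightest probe (adjusted p = 0.244) and by 0.19 on its other probe (adjusted p = 0.000363). The brightest probe had identical values on several arrays, such as 14.682 in SN of control 2 and TH of controls 2 and 4. Differences between such arrays cannot be read from it. Eef1a2, the form that replaces it in adult neurons and muscle, ranged from 13.14 to 13.41 in SN (median 13.32) and from 13.16 to 13.67 in TH (median 13.46). Its SN value was lower in all but 1 mouse, by -0.13 (SE 0.04, adjusted p = 0.026), within overlapping ranges. This call was narrow: without control 2, 3, 7 or 9 the adjusted p was 0.0545, 0.0573, 0.0546 or 0.0586.

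Eef2, the translocase, varied more between mice than any of these: 9.20 to 10.72 in SN (median 10.13) and 9.30 to 10.26 in TH (median 9.82). Its 0.25 difference had an SE of 0.16 (adjusted p = 0.23). Without control 13, one of the SN arrays that stood apart, it was 0.38 and passed (adjusted p = 0.0174). Eef2k, the calcium-dependent kinase that inhibits eEF2, lay at 8.36 to 8.69 in SN (median 8.46) and 8.24 to 8.49 in TH (median 8.37). It rose in SN in 10 of 11 mice, by 0.12 (SE 0.02, adjusted p = 0.00182), with overlap.

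Eef1e1 carries an elongation factor name but encodes AIMP3, one of the scaffold proteins that hold several tRNA synthetases together in the multisynthetase complex. It ranged from 8.57 to 9.04 in SN (median 8.79) and from 8.88 to 9.44 in TH (median 9.11). The ranges overlapped, and SN was lower by -0.30 (SE 0.05, adjusted p = 0.00031) in 10 of 11 mice. The other scaffold genes of the complex, Aimp1 (-0.25) and Aimp2 (-0.27), also fell, and were picked out after their values were seen.

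Both measured poly(A)-binding proteins rose in SN. Pabpc1, the main protein that coats the poly(A) tail and binds eIF4G, lay at 9.16 to 9.52 (median 9.26) in SN and 8.68 to 9.22 (median 9.03) in TH. It was higher in SN in all 11 mice, by 0.29 (SE 0.04, adjusted p = 0.000243), although the highest TH arrays reached the lowest SN arrays. Pabpc4, its inducible relative, lay at 10.09 to 10.38 (median 10.25) in SN and 9.99 to 10.22 (median 10.09) in TH. The gain of 0.14 (SE 0.04, adjusted p = 0.00952) was seen in 10 mice, and a further Pabpc4 probe gave 0.09 and passed.

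The cap-binding complex moved in both directions. Eif4a1, the helicase that unwinds the leader of the mRNA, lay at 12.17 to 12.61 (median 12.47) in SN and 12.65 to 12.97 (median 12.83) in TH. The groups did not overlap, no mouse was higher in SN, and the difference was -0.36 (SE 0.04, adjusted p = 1.26e-05), with -0.32 on its other probe. Its paralog Eif4a2 differed by -0.02 on the brightest probe (adjusted p = 0.875), while 2 dimmer probes gave -0.30 and -0.64, of which the last passed. The Eif4a2 value thus depends on the probe.

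Eif4g1, the scaffold, was at 10.17 to 10.61 (median 10.48) in SN against 10.09 to 10.35 (median 10.21) in TH. It rose by 0.19 (SE 0.04, adjusted p = 0.00185) in 10 of 11 mice with overlapping ranges, and by 0.20 on its other probe. Eif4e itself (-0.01, adjusted p = 0.858) and the helicase cofactor Eif4b (0.05, adjusted p = 0.0978, or 0.0447 without control 6) did not pass. Both probes were dim (7.90 to 8.17 and 7.88 to 8.10 over both fractions), which limits what they can show. On jointly normalized log2 signals they were at -0.02 and 0.11.

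Eif4ebp2, the 4E-BP that predominates in brain and represses eIF4E there, lay at 8.70 to 9.39 (median 9.16) in SN and 8.64 to 8.94 (median 8.76) in TH. All 11 mice were higher in SN, by 0.35 (SE 0.05, adjusted p = 0.000239), with 2 SN arrays inside the TH range. Eif4ebp1, which has the same role in many tissues, differed by 0.01 (adjusted p = 0.842), and the eIF4E transporter Eif4enif1 by 0.07 (adjusted p = 0.164).

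**Figure D2:**
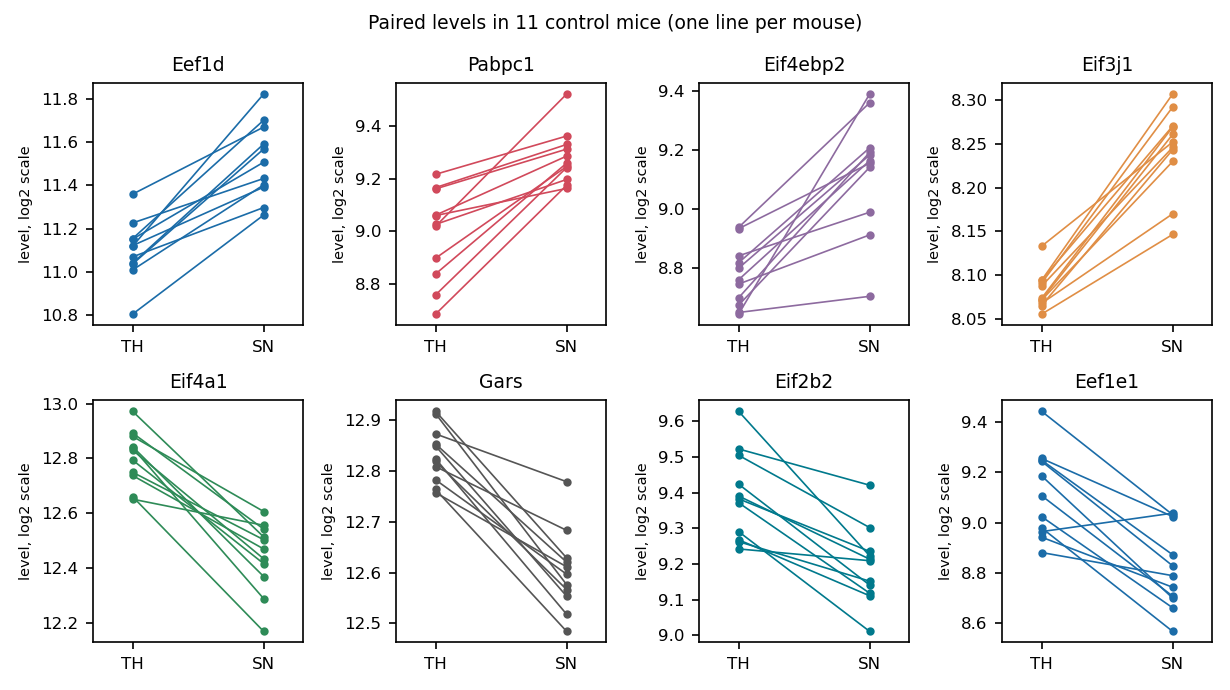
Levels of 8 genes in TH and SN of 11 control mice (y axis, the authors' normalized values on the log2 scale; each line joins the TH and SN arrays of 1 mouse; the y axes do not start at 0 and differ between panels). Upper row, Eef1d, Pabpc1, Eif4ebp2 and Eif3j1 rise in all 11 mice, and lower row, Eif4a1, Gars and Eif2b2 fall in all 11 and Eef1e1 in 10.

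All 5 subunits of eIF2B were measured, and the catalytic one moved against the rest. Eif2b1, Eif2b2 and Eif2b3 had medians of 9.12, 9.21 and 8.78 in SN and of 9.30, 9.38 and 8.96 in TH. They fell by -0.20 (SE 0.03, adjusted p = 0.000586), -0.20 (SE 0.03, adjusted p = 0.000275) and -0.19 (SE 0.03, adjusted p = 0.000161), in 11, 11 and 10 of 11 mice. Eif2b4 fell by -0.09 (SE 0.03, adjusted p = 0.0299), a call lost without control 1, 3, 5, 8 or 10 (adjusted p 0.052 to 0.0621). Eif2b5, the subunit that exchanges the nucleotide, lay at 10.35 to 10.85 (median 10.59) in SN and 10.20 to 10.63 (median 10.39) in TH. It rose by 0.18 (SE 0.05, adjusted p = 0.00729) in 10 mice, and 2 further probes gave 0.14 and 0.23, of which the second passed.

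Of eIF2 itself, the gamma subunit Eif2s3x rose by 0.20 (SE 0.07, adjusted p = 0.0383), a call lost without any 1 of 8 control mice (all but 4, 10 and 13; adjusted p 0.0531 to 0.0828). The beta subunit Eif2s2 was at 0.09 without passing (adjusted p = 0.0978, or 0.0245 without control 4). Neither eIF2 kinase of the set passed: Eif2ak1, the heme-regulated kinase, was at 0.09 (adjusted p = 0.154) and Eif2ak3, the endoplasmic reticulum kinase PERK, at 0.00 (adjusted p = 0.994). A further eIF2 kinase, Eif2ak2 or PKR, which the array carries under another name, rose by 0.09 (adjusted p = 0.016).

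Among the 9 eIF3 subunits of the set, part of the scaffold of the initiation complex, 2 rose, 1 fell and 6 did not pass. Among all genes, 20% rose and 21.3% fell. Eif3j1, a loosely bound subunit, lay at 8.15 to 8.31 (median 8.25) in SN and 8.06 to 8.13 (median 8.07) in TH. No TH array reached an SN array, and the difference was 0.16 (SE 0.02, adjusted p = 7.42e-06). Eif3f rose by 0.18 (SE 0.06, adjusted p = 0.0197) and Eif3g fell by -0.22 (SE 0.05, adjusted p = 0.00473). Eif3b (0.12), Eif3a (0.09), Eif3l (0.00), Eif3c (-0.06), Eif3d (-0.08) and Eif3i (-0.14, adjusted p = 0.0522) did not pass. Eif3b passed without control 13 (0.17), Eif3d without control 9 (-0.11) and Eif3i without control 2 or 10 (-0.16 in both).

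Of the factors named eIF1 or eIF5, the 3 in the set changed, where 41.3% of all genes did. Eif1 (-0.08, adjusted p = 0.303) and Eif1b (-0.13, adjusted p = 0.0813), carried under other array names, did not pass. Eif5, which triggers GTP hydrolysis by eIF2 at the start codon, lay at 12.38 to 12.73 (median 12.48) in SN and 12.17 to 12.43 (median 12.25) in TH. It rose in every mouse, by 0.22 (SE 0.05, adjusted p = 0.00203), with the ranges meeting at their ends. Eif5a, the hypusine-bearing factor that helps the ribosome through stalls, was at 9.96 to 10.62 (median 10.32) in SN and 10.44 to 10.98 (median 10.55) in TH. It fell in every mouse, by -0.26 (SE 0.05, adjusted p = 0.00094), and 2 more probes gave -0.46 and -0.47. Eif1a, which assists start codon scanning, fell by -0.16 (SE 0.04, adjusted p = 0.00373).

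Of the 18 tRNA synthetases, the enzymes that charge each tRNA with its amino acid, 1 rose, 3 fell and 14 missed the threshold. Of all genes 20% rose and 21.3% fell. The median difference of the synthetases was -0.03. Some of the 14 passed when a mouse was left out. Vars (adjusted p = 0.0513) was higher without control 5, 10 or 13, and Lars (adjusted p = 0.0636) without control 3 or 10. Iars (adjusted p = 0.242) was lower without control 4. Gars, for glycine, lay at 12.48 to 12.78 (median 12.60) in SN and 12.76 to 12.92 (median 12.82) in TH. Only the highest SN array reached the TH range, and SN was lower in all 11 mice, by -0.23 (SE 0.02, adjusted p = 1.53e-05). Farsb, the beta chain for phenylalanine, fell by -0.21 (SE 0.04, adjusted p = 0.00122). The alpha chain Farsa, on a dim probe (7.87 to 8.15 in SN), was at -0.02 (adjusted p = 0.61). In alcohol mice, on jointly normalized log2 signals, both chains were lower in SN: Farsb by -0.22 and Farsa by -0.16 (limma adjusted p = 0.00709 and 0.00741). Rars, for arginine, fell by -0.17 (SE 0.04, adjusted p = 0.00367). Eprs, the joint enzyme for glutamate and proline, rose by 0.10 (SE 0.04, adjusted p = 0.0431), a call lost without control 1, 2, 5, 6, 7, 9 or 10 (adjusted p 0.0593 to 0.0914). Kars, for lysine, was at 8.86 to 9.23 (median 9.09) in SN and 9.06 to 9.29 (median 9.19) in TH, a difference of -0.08 that did not pass (adjusted p = 0.107, or 0.0408 without control 7).

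The 3 Argonautes that were measured lay at 0.02 to 0.04 (0.04 to 0.08 on jointly normalized log2 signals) and none passed. Of 8 measured TOP genes, 4 rose (Eef1d, Pabpc1, Eif3f and Eef1g) and none fell, where 20% of all genes rose and 21.3% fell. All 8 estimates were above 0, with a median of 0.17 against 0.00 for all genes. Without control 13, 5 rose. Genes of the same families that the array carries under other names ran the other way: of 11 measured, 1 rose (Eif2ak2) and 5 fell, among them Eif6 (-0.25) and Eif4a3 (-0.21), which act in ribosome assembly and at exon junctions. That list was drawn up after the files were seen.

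Of 34 measured regulators of translation outside the set, 6 rose and 11 fell. For comparison with this and the lists below, 20% of all genes rose and 21.3% fell. Mtor (0.17), its brake Tsc2 (0.12) and the eIF4E kinase Mknk2 (0.21) were among those that rose. Mcts1, a reinitiation factor (-0.59), Rheb, the activator of mTOR (-0.25), and Atf4, the transcription factor induced by eIF2 phosphorylation (-0.22), were among those that fell. Of 17 ATF4 target genes 4 rose and 4 fell, and of 14 mitochondrial synthetases 3 rose and 1 fell.

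Cell type markers moved with the fraction. All 10 astrocyte markers rose in SN (mean log2 level per array 11.67 to 12.09 in SN against 10.99 to 11.26 in TH), and all 8 measured of 10 endothelial markers fell (8.12 to 8.30 against 9.31 to 9.64). Of 6 measured neuron markers, 1 rose and 3 fell, and their mean level was 12.19 to 12.56 in SN against 12.49 to 12.69 in TH. Of 10 microglia markers 3 rose and none fell (8.82 to 9.21 against 8.80 to 9.02). Of 8 measured oligodendrocyte markers 3 rose (Mobp by 1.06, Mbp by 0.80 and Cnp by 0.42) and 4 fell (Cldn11, Opalin, Mag and Mog, by -0.44 to -0.29), while their mean level was 10.04 to 11.28 against 9.85 to 11.25. No marker list is at 0 in either fraction. The part of these cell types in the differences of the translation genes was not tested.

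In alcohol mice the question was whether the same factors separate the fractions. On log2 signals normalized together, 32 of the 62 genes differed between SN and TH over 8 pairs, 19 higher and 13 lower, which is 51.6% against 47.5% of all genes (21.8% higher, 25.7% lower). On this scale 21 genes were called in both control and alcohol mice, all in the same direction. They make up 80.8% of the control calls and 65.6% of the alcohol calls, against 75.6% and 68.4% over all 12277 genes.

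Eef1d (0.43, SE 0.05, adjusted p = 4.74e-06), Eif4a1 (-0.34, SE 0.05, adjusted p = 9.13e-05) and Eef1e1 (-0.33, SE 0.05, adjusted p = 0.000136) stood beside 0.42, -0.35 and -0.41 in controls on the same scale. Pabpc4 lay at 10.38 to 10.59 (median 10.52) in SN and 10.00 to 10.35 (median 10.09) in TH of alcohol mice. All 8 pairs were higher in SN, by 0.40 (SE 0.04, adjusted p = 2.16e-06), against 0.16 in the 11 control pairs on the same scale. Eef2 was higher by 0.60 (SE 0.09, adjusted p = 9.46e-05) in 7 of 8 pairs. Within eIF2B, Eif2b5 rose again, by 0.30 (SE 0.04, adjusted p = 4.54e-05), and the other 4 subunits fell again, by -0.18 to -0.13 (Eif2b2 had an adjusted p of 0.0502 without alcohol mouse 2). Of the 8 TOP genes 7 rose, Eif4b excepted, where 21.8% of all genes rose, and the median of the 8 was 0.29. Eef1a1 was lost without alcohol mouse 4 or 7 (adjusted p = 0.0715 and 0.0639). Its probe again had identical values on several arrays (14.703 in SN of alcohol mice 1, 2, 7 and 8 and TH of mouse 3).

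Kars lay at 9.13 to 9.38 (median 9.21) in SN and 8.79 to 9.26 (median 9.04) in TH of alcohol mice. It was higher in SN in 7 of 8 pairs, by 0.21 (SE 0.05, adjusted p = 0.00176), whereas in controls it was lower in 9 of 11 pairs (-0.11 on the same scale, adjusted p = 0.108). A dimmer Kars probe gave 0.01. With quantile normalization run within each fraction, which shifts the median of all probes to -0.23, Kars was at -0.0937, below 0 but above that median.

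**Figure D3:**
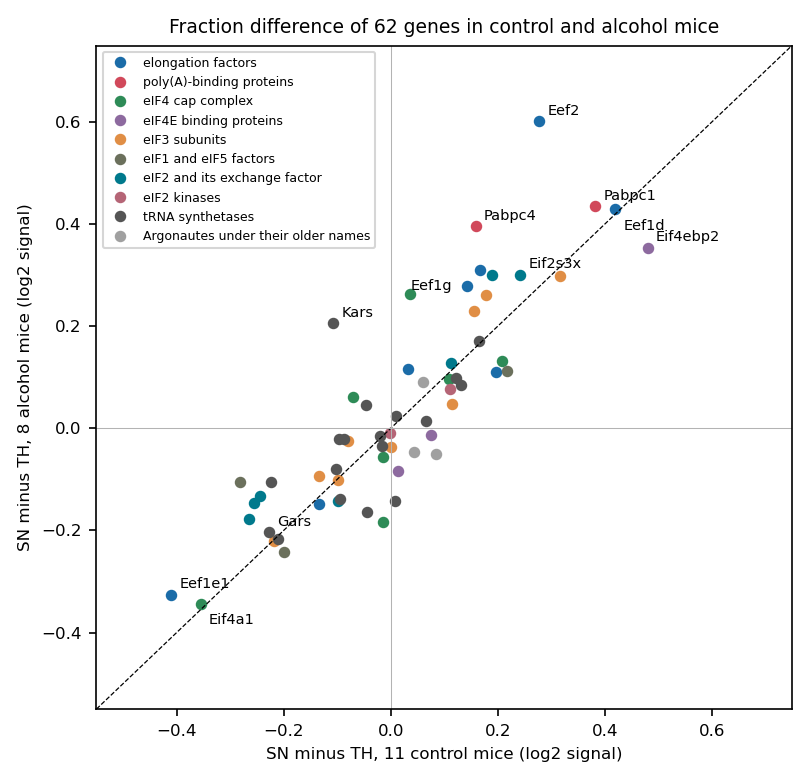
SN minus TH of 62 genes in 11 control mice (x axis) and 8 alcohol mice (y axis), both as differences of log2 signals normalized together; each point is 1 gene coloured by role and the dashed line marks equal differences. Eef1d and Eif4a1 lie near the line, while Kars (-0.11 and 0.21), Pabpc4 (0.16 and 0.40) and Eef2 (0.28 and 0.60) lie above it. No gene passed the direct test of that difference, and the Eef2 control value includes 1 pair at -1.23 (control 13).

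The alcohol effect on the SN and TH difference was tested directly on the mouse differences (8 alcohol, 11 control). No gene of the set passed, nor did any of the 17265 probes (0% called, limma adjusted p under 0.05), and 5 of the 62 had an unadjusted p under 0.05, against 12.6% of all genes. They were Kars (0.31, SE 0.07, adjusted p = 0.313), Pabpc4 (0.24, SE 0.06, adjusted p = 0.313), Eef1g (0.14, SE 0.06, adjusted p = 0.363), Eif5a (0.18, SE 0.08, adjusted p = 0.381) and Ago3 (-0.13, SE 0.06, adjusted p = 0.398). For Kars the mouse differences ran from -0.02 to 0.34 (median 0.23) with alcohol and from -0.53 to 0.18 (median -0.08) in controls, and they overlapped. Eef2 was at 0.32 (SE 0.23, adjusted p = 0.549), with unadjusted p = 0.164. Its lowest control pair was control 13, at -1.23.

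Alcohol and control mice were then compared within SN (8 against 13 arrays), the fraction in which the study looked for synaptic effects of drinking. No gene of the set passed and no probe of 17514 did (0% called). An unadjusted p under 0.05 was reached by 9 of 63 genes, 7 higher and 2 lower with alcohol, against 10.6% of all genes (5.65% higher, 4.95% lower). The control SN arrays here are shared with the fraction comparison above, so the 2 comparisons are not independent.

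Kars had the smallest p of the set. Its alcohol arrays lay at 9.08 to 9.28 (median 9.14) and its control arrays at 8.73 to 9.09 (median 8.95). The groups overlapped by 1 control array, and the difference was 0.20 (SE 0.04, adjusted p = 0.383). It was 0.19 without the SN arrays of controls 12 and 13 and 0.16 with the number of detected probes as a covariate, and the second Kars probe gave 0.03.

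Pabpc4 lay at 10.16 to 10.36 (median 10.29) with alcohol and 9.95 to 10.28 (median 10.12) in controls. All 8 alcohol arrays were above the control median, and 4 above every control, for a difference of 0.16 (SE 0.04, adjusted p = 0.417; other probe 0.11). Eef1g lay at 13.32 to 13.56 (median 13.41) against 12.97 to 13.40 (median 13.28). It was 0.17 higher (SE 0.05, adjusted p = 0.417), but 0.08 with the number of detected probes as a covariate.

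Eef2 was the most variable of the leading genes, with alcohol arrays at 9.59 to 10.76 (median 10.40) and controls at 8.92 to 10.59 (median 9.98). The groups overlapped widely and the difference was 0.50 (SE 0.19, adjusted p = 0.436; other probes 0.26 and 0.49). Its lowest controls were 12 (8.92) and 13 (9.06), and without them the difference was 0.35. The same arrays held the lowest control values of Eif4g2, an eIF4G-like factor without the eIF4E site (0.22, or 0.15 without them), and of Eif2b1 (0.12, or 0.07 without them). Wars, for tryptophan, was at 0.14 (adjusted p = 0.458) with and without them.

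Lower with alcohol at an unadjusted p under 0.05 were Eif4a2 and Ago3. Eif4a2 lay at 12.66 to 13.06 (median 12.97) with alcohol and 12.75 to 13.41 (median 13.17) in controls, and every alcohol array was below the control median. The difference was -0.21 (SE 0.08, adjusted p = 0.436), while its other probes gave 0.15 and 0.37, in the opposite direction. Ago3 differed by -0.06 (SE 0.02, adjusted p = 0.437).

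Regulators of initiation and elongation gave small values in alcohol SN: -0.02 for Eif4ebp1, -0.04 for Eif4ebp2, -0.01 for Eef2k, -0.05 for Eif2ak1 and -0.01 for Eif2ak3, none with an unadjusted p under 0.05. For Eif4ebp2 the interval of the difference was -0.19 to 0.10 and for Eif2ak1 -0.16 to 0.05. The 10 eIF3 subunits of the set had estimates above 0 (median 0.03), whereas Eif3k, carried under another array name, was at -0.04. The 9 measured TOP genes were also above 0 (median 0.08), as were 6103 of all 12435 genes. Without the SN arrays of controls 12 and 13 5 of the 10 eIF3 subunits and 8 of the 9 TOP genes were above 0. Astrocyte markers averaged 11.70 to 11.95 in alcohol SN and 11.55 to 11.98 in control SN, and choroid plexus markers, 6 of 10 measured, 8.43 to 8.93 against 8.45 to 11.03. The part of these tissues was not tested.

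**Figure D4:**
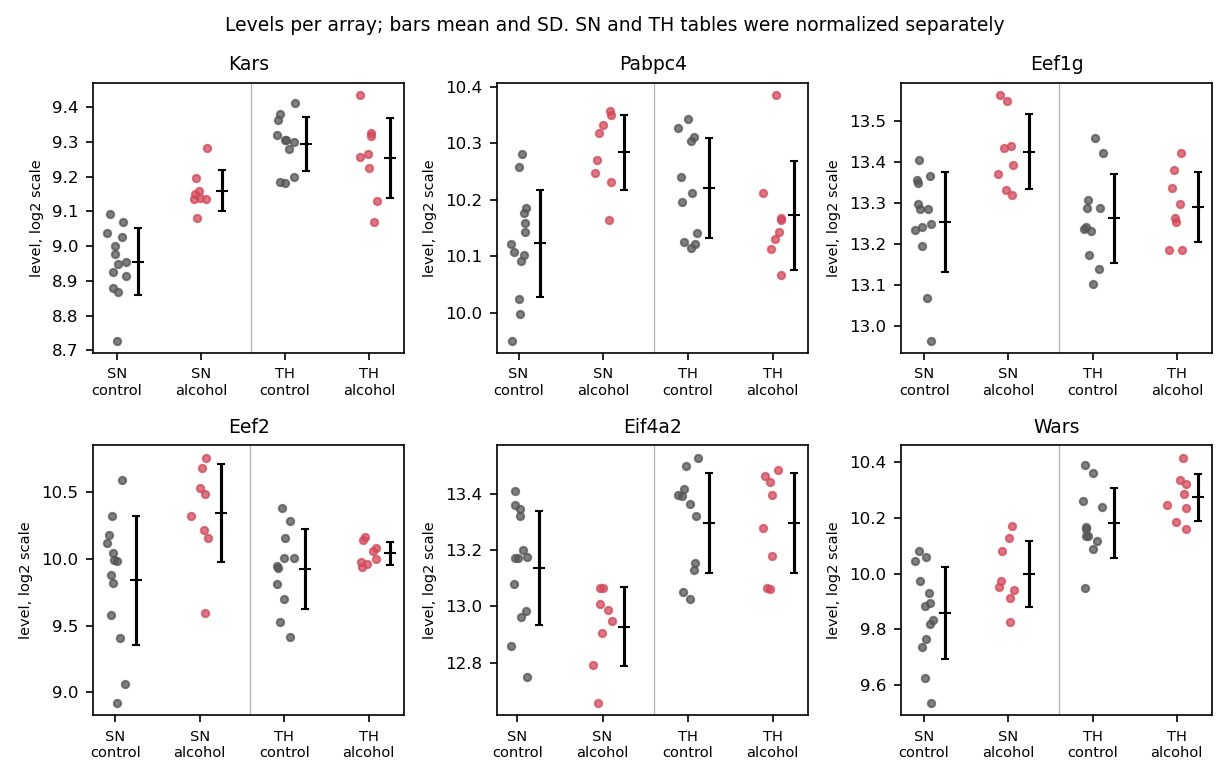
Levels of Kars, Pabpc4, Eef1g, Eef2, Eif4a2 and Wars on each array (y axis, the authors' normalized values on the log2 scale, not starting at 0; grey, control; red, alcohol; black, mean and SD). The SN table (13 controls, 8 alcohol) and the TH table (11 controls, 8 alcohol) were normalized separately, so levels compare only within a fraction. The 8 alcohol SN arrays of Kars lie at 9.08 or above, where 1 of 13 controls does, and the TH groups overlap.

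In TH (8 against 11 arrays) no gene of the set passed and no probe of 18318 did (0% called, limma), and none of the 62 genes had an unadjusted p under 0.05, against 3.12% of all genes. The estimates ran from -0.08 to 0.12. Kars was at 9.07 to 9.43 (median 9.26) with alcohol and 9.18 to 9.41 (median 9.30) in controls, a difference of -0.04 (SE 0.04) with an interval of -0.12 to 0.04. Pabpc4 was at -0.05 (SE 0.04), Eef1g at 0.03 (SE 0.04) and Eef2 at 0.12 (SE 0.10). The smallest p-values belonged to Gars (-0.07, SE 0.04) and Wars (0.09, SE 0.05), both with an adjusted p of 0.999. That genes of SN came nearer to the threshold than genes of TH is not a difference between the fractions, which only the test on the mouse differences above addresses.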

How the data were processed

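RNA was measured on Illumina Mouse WG-6 v2.0 arrays. The authors deposited average signal intensity and a detection p-value per probe, and 3 normalized tables whose values lie on a log2-like scale, on which some dim probes differ less than on log2 signals; the submitters' processing notes name lumi, and the transform is not given in the sources used here. Kept probes were those detected at p 0.05 on at least 80% of a table's arrays, as checked on the deposited detection p-values. Gene names came from the deposited tables.

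Differences were fitted over all probes with limma 3.58.1 (R 4.3.3; lmFit, eBayes, Benjamini-Hochberg), tested on simulated data: mouse as a block for SN against TH, group means for alcohol against control. For alcohol mice, log2 signals of all 40 arrays were quantile-normalized together. SN and TH of a mouse came from the same homogenate, and pair deviations correlated at 0.08 to 0.62 in the 11 control pairs. The gene set and lists were chosen with earlier results of these data known. Named genes were a fixed set of core factors, the 10 smallest p-values in each direction between fractions, the 5 in each direction per alcohol comparison, and the members of complexes described. Bead chip positions were not used here.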

Additional observations from a re-analysis of the deposited data

Results flagged for a closer look

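Among 80 groups of 8 arrays, 7 held 1 array far from the other 7 (gap to the nearest array over the range of the group, Dixon's 95% limit), and chance flags about 1 in 20 groups. In SN of alcohol mice these were Eif3d in mouse 6 (11.4, the others 11.6 to 11.7), Eif3j1 in mouse 3 (8.32, the others 8.06 to 8.14) and Eif5 in mouse 2 (12.1, the others 12.3 to 12.4). In TH of alcohol mice, mouse 2 was low for Eef1a2 (13.2, the others 13.5 to 13.7) and Eif2ak1 (9.32, the others 9.48 to 9.59). Mouse 3 was high in TH for Eprs (8.57, the others 8.43 to 8.49), and mouse 5 for Pabpc4 (10.4, the others 10.1 to 10.2).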

How the results depend on the processing

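Alternatives were another normalization or background correction, all probes or only probes detected on every array, the mean over a gene's probes, the pairing, the number of detected probes as a covariate, and leaving out mice. Between fractions in control mice, 11 to 16 genes were higher and 11 to 14 lower as each mouse was left out; 4 of the 26 calls were lost without some mouse (Eprs, Eef1a2, Eif2b4 and Eif2s3x). With no replicate block 25 genes were called, 23 of them among the 26, against 6109 of all 17820 probes. With another normalization of log2 signals 25 of the 26 remained, with background correction 24, and over all probes of the array 22. All 26 remained among probes detected on every array and with the mean over a gene's probes. That mean gave 32 calls among the 62 genes, against 5300 of all 12626 genes. In alcohol mice the ranges were 16 to 19 and 12 to 14. There were 26 calls with no replicate block and 27 with background correction, against 6298 and 7979 of all 17265 probes. The replicate block added to the alcohol comparisons, where equal numbers name separate mice, gave 0 calls. In SN 13 genes then had an unadjusted p under 0.05, against 1331 of all 17514 probes. Every alcohol comparison stayed at 0 calls under every alternative run. Quantile normalization within each fraction lowered the median SN minus TH of all probes in alcohol mice to -0.23. Then 4 of the 62 genes were higher and 44 lower, with a median of -0.21 for the set, where 14001 of all 17265 probes were called. In the set 18 genes turned sign, 7 of them called with joint normalization (Eif2s2 at -0.17, Eif3b at -0.07, and Eef2k, Eif4g1, Eif4g2, Eprs and Kars). Named genes that turned were Eef2k (-0.14), Eif2ak1 (-0.22), Eif4g1 (-0.16), Eif4g2 (-0.0071), Eif5 (-0.13), Eprs (-0.0796), Hars (-0.10) and Kars (-0.0937), all above that median of all probes. Leaving out 1 alcohol mouse ended 7 calls between fractions (Eef2k, Eif4a2, Eif4g1, Eprs, Eef1a1, Eif2b2 and Eif2s2). Without the SN arrays of controls 12 and 13, 5 of 63 genes had an unadjusted p under 0.05 for alcohol in SN, against 1157 of all 17514 probes. With detected probes as a covariate it was 4 genes, against 851 probes. The 16 genes without a kept probe in the control SN and TH table could not be tested between fractions. Of these, only Eif3h was tested for alcohol in SN.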
